A study of Mus musculus with 14 samples.

Results

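Expression of 7 adhesion molecules through which blood leukocytes hold on to vessel walls was followed in mouse liver during concanavalin A (ConA) hepatitis: *Sele*, *Selp*, *Icam1*, *Vcam1*, *Icam2*, *Pecam1* and *Madcam1*. They were chosen by gene symbol as the ligands and endothelial receptors of the adhesion cascade, and all 7 were found among the 17656 genes of the series. ConA is a plant lectin that activates T cells and causes immune-mediated liver injury when injected into a vein. The 14 livers came from male C57BL/6 mice aged 8 weeks, 1 RNA-seq library per mouse: 3 WT mice given saline (WT saline), 3 *Ythdf1*-/- mice given saline (KO saline), 4 WT mice given ConA (WT ConA) and 4 *Ythdf1*-/- mice given ConA (KO ConA). ConA was given at 8 mg/kg, and every liver was taken 8 h after the injection. The *Ythdf1* deletion, made with CRISPR/Cas9, is a deletion in the whole animal and not in 1 cell type. YTHDF1 is a reader of the RNA mark m6A.

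Leukocytes leave the blood in steps. Selectins on the vessel wall bind sugar-bearing ligands on the leukocyte and let it roll, ICAM-1, ICAM-2 and VCAM-1 bind leukocyte integrins and hold it in place, and PECAM-1 at the cell borders takes part in its passage between endothelial cells. Inflammatory cytokines such as TNF, IL-1 and interferon gamma induce *Sele*, *Icam1* and *Vcam1*, with NF-kB as a main activator, while *Pecam1* and *Icam2* are largely constitutive endothelial genes, P-selectin is also stored in platelets, and MAdCAM-1 is best known from vessels of the gut. The liver sinusoid is an unusual bed, in which leukocytes can stop with little need of selectins.

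Expression is given in TPM (transcripts per 1000000 transcripts of a library, corrected for gene length), so that levels of different genes could be compared. The number of reads behind a library is unknown. Hepatocyte markers summed to 102134 to 128087 TPM in the saline livers and 50333 to 79052 TPM after ConA, and neutrophil markers to 5.44 to 11.8 and 329 to 990.5 TPM. *Ythdf1* RNA was not lower in the livers labelled KO. The lowest KO saline liver had 18.4 TPM and the highest WT saline liver 13.9 TPM, so that these groups did not overlap, and after ConA the KO livers (15.5 to 26.2 TPM) lay over the WT livers (18.7 to 25.6 TPM). A value for the whole gene does not show whether the deleted part is present, so the genotype labels could not be checked here. WT saline replicates 2 and 3 were far more alike than other replicates. On the 100 genes with the largest variance among KO saline libraries, they had a median absolute log2 ratio of 0.120, while every other pair of replicates had 0.268 to 1.80. Without read counts it could not be told whether replicates 2 and 3 are 1 library given as 2. Comparisons with WT saline were repeated with these replicates averaged into 1 library, and the value so obtained stands beside each call of the 7 genes that it ended. Median-ratio scaling factors were 0.791 in WT ConA replicate 3 and 0.847 in KO ConA replicate 3, and 0.966 to 1.20 in the other libraries.

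The stretches around the start sites of the inducible ligand *Icam1* and of both selectins are shown because the data differ most between them: 1 gene rose strongly in both genotypes, 1 was near 0 without ConA, and 1 fell in WT livers. Each runs from 250 bases before to 50 bases after the RefSeq start on GRCm38.p6, on the plus strand, and capitals mark a match to one of the motifs named in the next paragraph.
Icam1 (chr9:21015690-21015989): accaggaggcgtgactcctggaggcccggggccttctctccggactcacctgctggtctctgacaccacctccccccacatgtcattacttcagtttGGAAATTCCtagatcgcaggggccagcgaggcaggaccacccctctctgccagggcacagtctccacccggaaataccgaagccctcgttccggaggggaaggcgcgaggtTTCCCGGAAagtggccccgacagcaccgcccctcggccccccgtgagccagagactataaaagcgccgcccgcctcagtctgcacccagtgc
Sele (chr1:164047984-164048283): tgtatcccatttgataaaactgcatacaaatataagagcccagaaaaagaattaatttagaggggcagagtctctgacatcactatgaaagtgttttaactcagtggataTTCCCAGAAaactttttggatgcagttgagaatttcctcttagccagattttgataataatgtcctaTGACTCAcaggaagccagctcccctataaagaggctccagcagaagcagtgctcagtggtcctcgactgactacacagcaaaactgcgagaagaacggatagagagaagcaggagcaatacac
Selp (chr1:164115014-164115313): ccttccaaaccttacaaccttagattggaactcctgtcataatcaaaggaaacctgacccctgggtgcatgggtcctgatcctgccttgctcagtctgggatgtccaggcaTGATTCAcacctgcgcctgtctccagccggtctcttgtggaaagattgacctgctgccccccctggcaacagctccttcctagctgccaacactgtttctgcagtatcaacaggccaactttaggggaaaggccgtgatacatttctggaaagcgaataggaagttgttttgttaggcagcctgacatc

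The motifs were searched on both strands: an NF-kB consensus of 10 bases, the NF-kB-like palindrome GGAANTTCC, the STAT palindrome TTCNNNGAA and the AP-1 site TGANTCA. Positions count from the first transcribed base as 0. The *Icam1* stretch held GGAANTTCC at -153 to -145, a match present in 0.928% of the 32851 promoters of the table, and TTCNNNGAA at -42 to -34, present in 8.30%. The *Sele* stretch held TTCNNNGAA at -140 to -132 and TGANTCA at -73 to -67, the latter present in 7.81% of promoters. The *Selp* stretch held TGANTCA at -139 to -133. The 10-base NF-kB consensus, present in 8.46% of promoters, was matched in none of these 3 and at 2 places in the *Madcam1* stretch (chr10:79664309-79664608), as GGAAAGCCCC at -83 to -74 and GGAAAGTCCC at -70 to -61. The table holds 4 of the 7 genes, and *Vcam1*, *Icam2* and *Pecam1* were not searched. A match describes the letters of the window and not a bound site.

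ConA changed the adhesion molecules to very different degrees. *Icam1* rose more than 20-fold on the mean TPM in both genotypes, *Vcam1* and *Pecam1* rose several-fold, *Sele* appeared from near 0, *Selp* fell in WT livers, and *Madcam1* stayed at or near 0. After filtering on low values, 5 of the 7 genes could be tested in WT ConA against WT saline and 6 in KO ConA against KO saline. All 5 passed the threshold in WT livers (adjusted p under 0.05 by limma on log2(TPM + 1)), 4 higher and 1 lower, beside 53.0% of all tested genes called, 22.0% higher and 31.0% lower. In KO livers 4 of the 6 passed, all higher, beside 64.6% of all tested genes called, 33.9% higher and 30.7% lower. *Icam2* in WT livers and *Sele* in KO livers passed the filter only through the ConA group, and *Selp* in WT livers mainly through the saline group. These counts therefore say nothing about the genes as a set. With the averaged WT saline replicates, *Icam1* (adjusted p = 1.38e-06), *Vcam1* (0.0067) and *Selp* (0.0254) still passed in WT livers. In bulk liver, more cells of a type and more RNA per cell cannot be told apart.

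**Figure D1:**
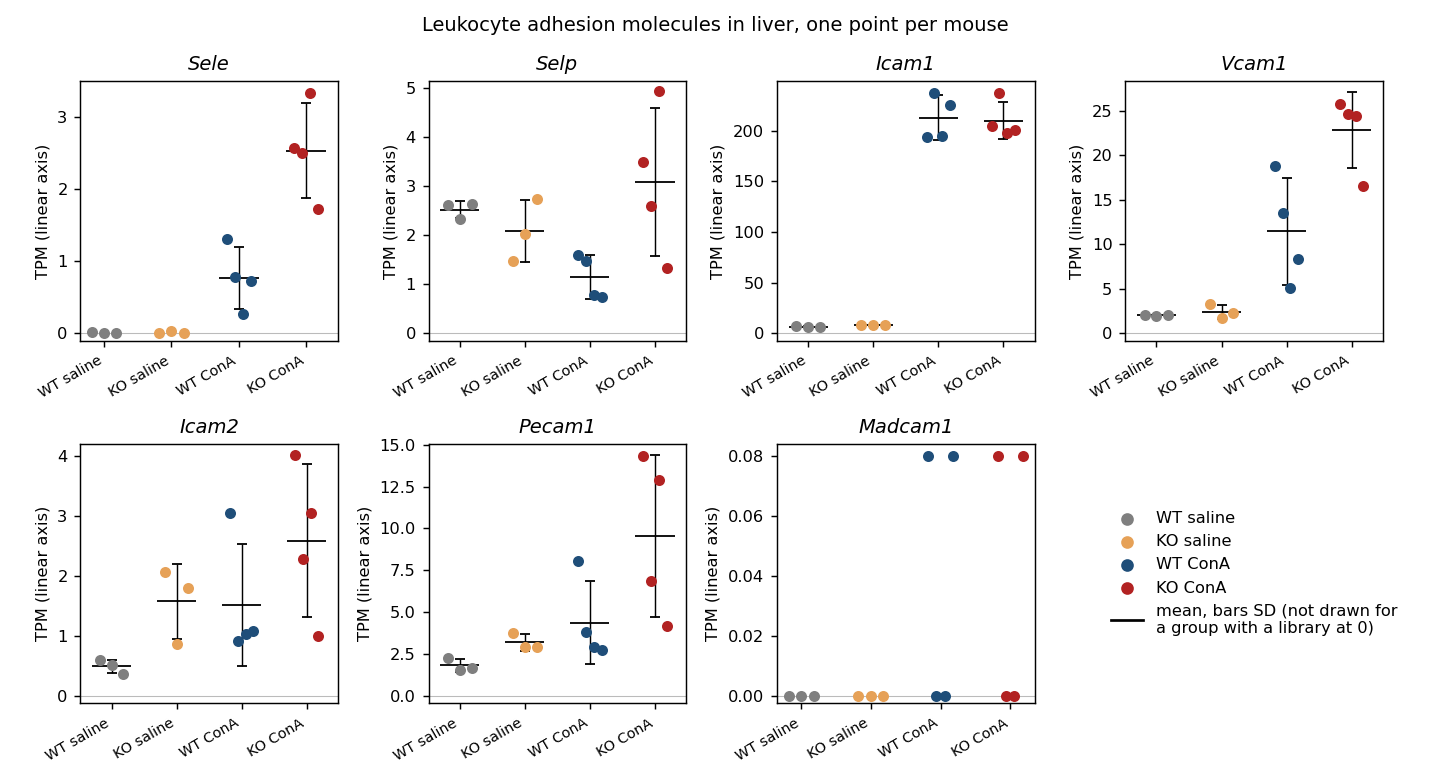
TPM of each gene (linear axes that start near 0 and differ between panels) in the 4 groups, 1 point per mouse, with the mean as a line and the SD as bars in groups without a library at 0. *Icam1* separates saline from ConA livers with overlapping ranges of the genotypes after ConA (193.95 to 237.32 TPM), *Sele* separates all 4 KO ConA livers (1.73 to 3.34 TPM) from all 4 WT ConA livers (0.26 to 1.31 TPM), and *Selp* is lower in WT ConA than in WT saline livers.

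*Sele*, which encodes E-selectin of activated endothelium, was listed at 0 to 0.03 TPM in the 6 saline livers, with 4 of them at 0. After ConA, it reached 1.31, 0.78, 0.26 and 0.72 TPM in the WT livers and 2.57, 2.51, 3.34 and 1.73 TPM in the KO livers. Every ConA liver lay above every saline liver, and every KO ConA liver lay above every WT ConA liver. In KO livers the log2 difference was 1.79 (SE 0.17), which is given without its p, because *Sele* entered that test only through the KO ConA livers, where it is high. In WT livers it was too low to be tested. No fold is given, because most saline libraries are listed at 0.

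*Selp* encodes P-selectin, which endothelial cells and platelets store in granules and move to the surface on activation. Its level was 2.62, 2.33 and 2.63 TPM in WT saline, 1.48, 2.02 and 2.75 TPM in KO saline, 1.60, 1.48, 0.79 and 0.74 TPM in WT ConA, and 3.49, 2.60, 4.94 and 1.33 TPM in KO ConA livers. All 4 WT ConA livers were below all 3 WT saline livers, while in KO mice the ConA and saline livers overlapped. The mean in WT livers was 2.19-fold lower after ConA (log2 difference -0.74, SE 0.18, adjusted p = 0.0069). *Selp* reached 1 TPM in 3 WT saline and 2 WT ConA livers. It thus entered the WT test mainly through the saline livers, where it is higher, and its WT p is read with that limit. In KO livers the log2 difference was 0.35 (SE 0.29, adjusted p = 0.304), and the difference between both responses was 1.08 (SE 0.37, adjusted p = 0.0923), above the threshold. Without KO ConA replicate 4, the lowest of its group, *Selp* passed the threshold as higher in KO ConA than in KO saline livers (log2 difference 0.59, adjusted p = 0.0486; range over 13 alternatives 0.0290 to 0.628). The summed TPM of 9 platelet markers in WT livers was 4.47 to 10.4 after saline and 8.12 to 23.6 after ConA, and of the 4 that could be tested *Pf4* (log2 difference 1.76) and *Ppbp* (1.06) were called higher (1 of the 4 with the averaged WT saline replicates, or without WT saline replicate 2 or 3 or WT ConA replicate 1). *Gp1ba*, too low to be tested, lay without overlap at 0.68 to 0.83 TPM after saline and 0.10 to 0.20 TPM after ConA. The markers therefore differed in direction. In KO livers the sums were 5.43 to 19.0 after saline and 8.01 to 11.5 after ConA, and none of the 3 tested genes passed the threshold in limma (0 at an unadjusted p under 0.05). The part of platelets in the *Selp* values was not tested.

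*Icam1*, the ligand of the leukocyte integrins LFA-1 and Mac-1, had the highest level of the 7 genes in every group. It stood at 6.95, 5.78 and 6.07 TPM in WT saline and 8.43, 7.59 and 7.61 TPM in KO saline livers. After ConA it stood at 193.95, 237.32, 194.26 and 225.31 TPM in WT and 204.03, 236.79, 197.61 and 200.18 TPM in KO livers. The saline and ConA ranges were far apart, and the ConA ranges of both genotypes lay over each other. The mean rose 33.9-fold in WT livers (log2 difference 4.88, SE 0.13, adjusted p = 3.89e-08) and 26.6-fold in KO livers (log2 difference 4.57, SE 0.12, adjusted p = 4.41e-10). The difference between both responses was -0.31 (SE 0.16, adjusted p = 0.245), and KO ConA and WT ConA livers differed by -0.02 (SE 0.12, adjusted p = 0.958). In the ConA groups *Icam1* had the smallest spread of the 7 genes relative to its mean: its SD was 22.0 and 18.3 TPM around means of 212.7 and 209.7 TPM in WT ConA and KO ConA livers.

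*Vcam1*, the ligand of the integrin VLA-4 on lymphocytes and monocytes, was at 2.07, 1.88 and 2.02 TPM in WT saline and 3.23, 1.69 and 2.29 TPM in KO saline livers. It rose to 18.75, 13.52, 5.13 and 8.36 TPM in WT ConA and 25.71, 24.66, 24.42 and 16.51 TPM in KO ConA livers. Every ConA liver was above every saline liver, and 3 of the 4 KO ConA livers were above every WT ConA liver. The mean rose 5.75-fold in WT livers (log2 difference 1.92, SE 0.34, adjusted p = 0.0013) and 9.50-fold in KO livers (log2 difference 2.81, SE 0.20, adjusted p = 7.98e-07). The difference between both responses, 0.89 (SE 0.43), did not pass the threshold (adjusted p = 0.211). The quotient of *Icam1* over *Vcam1* TPM, which does not depend on the scaling of a library, was 2.61 to 4.49 in the saline livers, 10.3, 17.6, 37.9 and 27.0 in WT ConA and 7.94, 9.60, 8.09 and 12.1 in KO ConA livers. It was higher in every ConA liver than in every saline liver, and WT ConA replicate 1 alone lay within the KO ConA range.

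*Icam2*, a second LFA-1 ligand present on resting endothelium, was at 0.59, 0.51 and 0.37 TPM in WT saline and 2.07, 0.87 and 1.79 TPM in KO saline livers. After ConA its values were 3.04, 0.92, 1.03 and 1.08 TPM in WT and 4.02, 2.28, 3.04 and 1.0 TPM in KO livers. All KO saline livers were above all WT saline livers, and the KO groups overlapped. In WT livers *Icam2* entered the test only through the ConA livers, where it is higher, so its WT p gives no support of its own for a rise. The log2 difference after ConA was 0.69 (SE 0.25, adjusted p = 0.0439) in WT and 0.43 (SE 0.29, adjusted p = 0.219) in KO livers. The former was lost when WT saline replicates 2 and 3 were averaged (adjusted p = 0.113; range over 11 alternatives 0.0200 to 0.129), and the latter passed without KO ConA replicate 4 (log2 difference 0.68, adjusted p = 0.0277; range over 13 alternatives 0.0082 to 0.586).

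*Pecam1*, which encodes the junction protein PECAM-1 (CD31), was at 2.28, 1.53 and 1.67 TPM in WT saline and 3.77, 2.93 and 2.90 TPM in KO saline livers. After ConA it was at 8.03, 3.80, 2.92 and 2.73 TPM in WT and 14.34, 6.84, 12.89 and 4.16 TPM in KO livers. The ConA livers of each genotype were above its saline livers, with replicate 1 the highest of both ConA groups. The mean was 2.39-fold higher in WT (log2 difference 0.84, SE 0.29, adjusted p = 0.0361) and 2.99-fold higher in KO livers (log2 difference 1.20, SE 0.33, adjusted p = 0.0083). The WT rise missed the threshold with the averaged WT saline replicates (adjusted p = 0.108; range over 14 alternatives 0.0072 to 0.114). A pan-endothelial list of 8 genes without *Pecam1* moved in both directions in the KO livers: *Cdh5* (log2 difference 1.32) and *Esam* (1.23) rose, and *Tie1* (-0.47), *Tek* (-1.17), *Eng* (-1.67), *Ptprb* (-1.53) and *Ramp2* (-2.07) fell. In WT livers 6 of the 8 could be tested, of which *Esam* rose (1.53) and none of the others passed the threshold in limma.

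*Madcam1*, the gene of the mucosal addressin bound by integrin alpha4beta7, was listed at 0 in all 6 saline livers. After ConA it was at 0.08 TPM in replicates 1 and 4 and at 0 in replicates 2 and 3 of either genotype. It was therefore not tested in any comparison, and no fold is given.

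**Figure D2:**
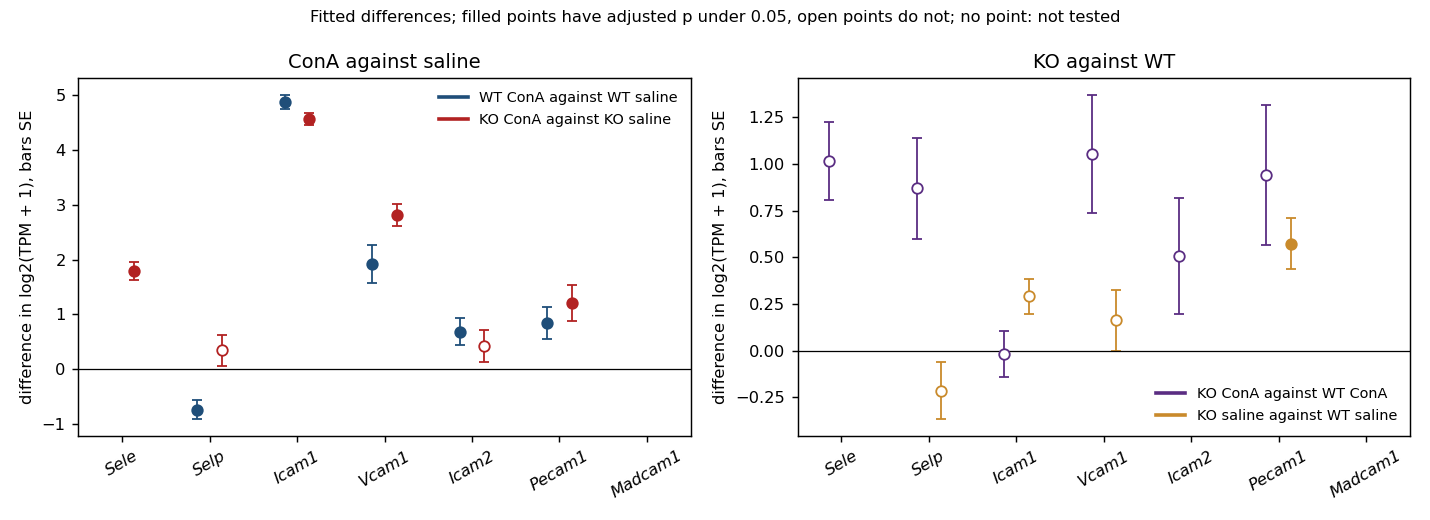
Fitted differences in log2(TPM + 1) with their SE for each gene, ConA against saline in each genotype on the left and KO against WT livers on the right, with linear axes. *Icam1* has the largest difference after ConA in both genotypes (4.88 and 4.57), *Selp* is the only point below 0 on the left (-0.74), and all points for KO ConA against WT ConA are open, because none passed the threshold.

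The order of the levels shifted with ConA. *Icam1* made up 47.8% of the summed mean TPM of the 7 genes in WT saline and 45.9% in KO saline livers, and 91.7% and 83.8% in WT ConA and KO ConA livers. In each group its range lay above that of the next gene without overlap. In WT saline livers *Selp* came next, followed by *Vcam1* and *Pecam1*, which overlapped, then *Icam2*, and *Sele* and *Madcam1* near 0. In KO saline livers *Pecam1*, *Vcam1*, *Selp* and *Icam2* followed with overlapping neighbours. After ConA *Vcam1* was second in both genotypes, overlapping with *Pecam1* in WT ConA livers and not in KO ConA livers. Then came *Icam2*, *Selp* and *Sele* in WT ConA and *Selp*, *Icam2* and *Sele* in KO ConA livers, each overlapping with the next of these, and *Sele* lay above *Madcam1* without overlap in both groups.

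The comparison of the genotypes after ConA asks whether the loss of YTHDF1 changes the adhesion molecules of the inflamed liver. Mean TPM in KO ConA livers was 3.31-fold that in WT ConA livers for *Sele*, 2.68-fold for *Selp*, 2.19-fold for *Pecam1*, 2.0-fold for *Vcam1*, 1.70-fold for *Icam2* and 0.986-fold for *Icam1*. None of the 6 tested genes passed the threshold in limma, beside 0.428% of all tested genes (0 of 6 with a robust eBayes fit as well). At an unadjusted p under 0.05 there were 4, namely *Sele*, *Selp*, *Vcam1* and *Pecam1*, beside 16.7% of all tested genes. *Sele* had the smallest p, with a log2 difference of 1.01 (SE 0.21, adjusted p = 0.0651). It was the only 1 of the 7 in which every KO ConA liver lay above every WT ConA liver, as did 6.37% of all tested genes, and it passed the filter mainly through the KO ConA livers. The log2 differences of the others were 0.87 for *Selp* (SE 0.27, adjusted p = 0.154), 1.05 for *Vcam1* (SE 0.32, adjusted p = 0.139), 0.94 for *Pecam1* (SE 0.37, adjusted p = 0.241) and 0.51 for *Icam2* (SE 0.31, adjusted p = 0.459).

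With all 14 libraries in the fit, which then shared 1 estimate of the spread, 3 of the 6 passed, beside 6.08% of all tested genes: *Sele* (adjusted p = 0.0068; range over 15 alternatives 0.0068 to 0.158), *Vcam1* (adjusted p = 0.0405; range over 16 alternatives 0.0405 to 0.279) and *Selp* (adjusted p = 0.0460; range over 15 alternatives 0.0460 to 0.326). *Sele* entered this test mainly through the KO ConA livers, where it is high, so its pass gives no support of its own. Without replicate 3 of both ConA groups, whose scaling factors were the lowest, none passed and the log2 differences were 0.76 for *Sele*, 0.58 for *Selp*, 0.72 for *Vcam1* and 0.65 for *Pecam1*. The sum of the neutrophil markers lay between 329 and 582 TPM in WT ConA livers and between 429 and 990.5 TPM in KO ConA livers, and *Cd44*, a hyaluronan receptor on leukocytes that can also bind E-selectin, was at 1.92 to 4.54 and 3.46 to 7.09 TPM. Their part in the differences between the genotypes was not tested.

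In the saline livers, 4 of the 7 genes could be tested and 1 passed, *Pecam1*, beside 19.2% of all tested genes. It was 1.75-fold higher in KO saline than in WT saline livers (log2 difference 0.57, SE 0.14, adjusted p = 0.0318), with every KO liver above every WT liver. This call was lost with the averaged WT saline replicates (adjusted p = 0.124; range over 13 alternatives 0.0179 to 0.404), when the number of genes called over the whole table fell from 2009 to 49. *Icam1* was also higher in every KO saline than in every WT saline liver (log2 difference 0.29, SE 0.09, adjusted p = 0.0678), while *Selp* (-0.21, adjusted p = 0.335) and *Vcam1* (0.16, adjusted p = 0.487) overlapped. Endothelial markers stood higher in the same KO saline livers: 6 of 8 pan-endothelial and 7 of 9 tested sinusoidal markers were called higher (0 of either list with the averaged WT saline replicates, or without WT saline replicate 2 or 3; 0 and 1 without KO saline replicate 1, and 4 sinusoidal markers without KO saline replicate 3), and the summed TPM of the pan-endothelial list was 41.1 to 60.5 in KO saline against 15.6 to 28.9 in WT saline livers. The share of these markers in the *Pecam1* and *Icam2* differences was not tested.

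Whether the response to ConA itself differed between the genotypes was tested with all 14 libraries. *Sele* was the 1 of 6 tested genes that passed, beside 4.78% of all tested genes called and 2.64% called higher. It reached 1 TPM in 4 KO ConA livers, 1 WT ConA liver and 0 saline livers, and thus entered the test through the group where it is high, so that the call gives no support of its own. Its response was larger in KO livers by 1.01 on the log2 scale (SE 0.26, adjusted p = 0.0412), the median over all tested genes being 0.14. *Sele* was near 0 in both saline groups, so that this value rests on the same ConA livers as the comparison between genotypes and repeats it. It passed under 7 of 21 alternatives (adjusted p 0.0228 to 0.113) and not with the averaged WT saline replicates (adjusted p = 0.112) or with the replicate block (adjusted p = 0.0506). *Pecam1* (0.37, adjusted p = 0.659) and *Icam2* (-0.26, adjusted p = 0.726) did not pass.

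To set the members against the amount of endothelial RNA, each was divided by *Pecam1* within its library, as log2((TPM + 1)/(*Pecam1* TPM + 1)). Exact two-sided permutation tests were run for 14 ratios in 3 comparisons, with p-values adjusted over all 14. Between KO ConA and WT ConA livers, the ratio differed by 0.07 for *Sele* (exact permutation p = 0.83), -0.07 for *Selp* (exact permutation p = 0.600), 0.11 for *Vcam1* (exact permutation p = 0.714), -0.96 for *Icam1* (exact permutation p = 0.143) and -0.44 for *Icam2* (exact permutation p = 0.0571). The adjusted values were 0.83, 0.70, 0.77, 0.222 and 0.1 in that order. The plain quotient of *Vcam1* over *Pecam1* TPM was 2.33, 3.56, 1.76 and 3.06 in WT ConA and 1.79, 3.61, 1.89 and 3.97 in KO ConA livers. The ranges of both groups overlapped over most of their length. For *Sele* the plain quotient was 0.16, 0.21, 0.09 and 0.26 in WT ConA and 0.18, 0.37, 0.26 and 0.42 in KO ConA livers. *Sele* lay near or under the pseudocount of 1 in WT ConA livers, so its log2 ratio also depends on the pseudocount.

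The result depended on the endothelial reference, and for *Sele* also on the pseudocount. With the mean log2(TPM + 1) of the 8 pan-endothelial genes in place of *Pecam1*, the difference between KO ConA and WT ConA livers was 0.71 for *Vcam1* and 0.67 for *Sele*, with every KO liver above every WT liver for both (exact permutation p = 0.0286, the smallest that 4 against 4 can give, adjusted p = 0.0800). The ratio of *Vcam1* was 2.484 to 2.79 in KO ConA and 1.24 to 2.479 in WT ConA livers, so that its separation and its p rest on a near tie. That of *Sele* was -0.42 to 0.07 and -1.04 to -0.55. *Sele* entered this test mainly through the KO ConA livers, where it is high, so its p gives no support of its own. For *Selp* the difference was 0.52 (exact permutation p = 0.0857) and for *Icam1* -0.37 (exact permutation p = 0.229). *Pecam1* rose after ConA in KO livers while 5 of the 8 reference genes fell and 2 rose, so that neither reference was constant.

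Against saline, the *Icam1* ratio to *Pecam1* rose by 4.04 in WT and 3.36 in KO livers, and that of *Vcam1* by 1.08 and 1.61, each with ranges that did not overlap (exact permutation p = 0.0571, the smallest that 4 against 3 can give, so that no p under 0.05 was possible). The *Selp* ratio was lower after ConA by 1.57 in WT livers and by 0.86 in KO livers with the same p. With the pan-endothelial reference the WT change was -0.69 and the KO change turned to 0.93. The *Sele* ratio in saline livers is set by *Pecam1* alone, as *Sele* is near 0 there.

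**Figure D3:**
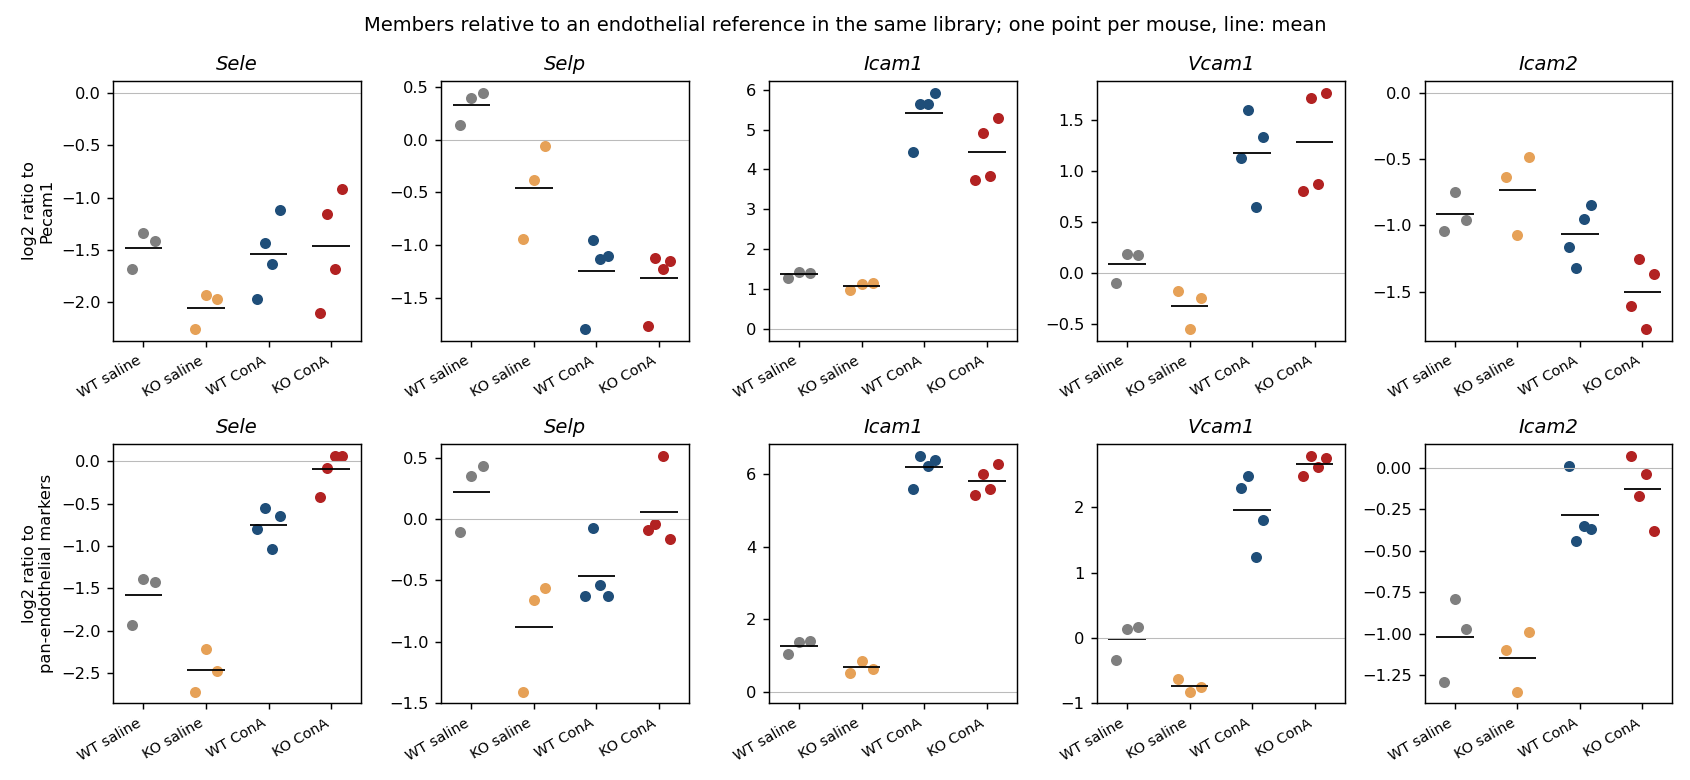
Log2 ratio of 5 genes to *Pecam1* (upper panels) and to the mean of 8 pan-endothelial markers (lower panels) in each library, with 1 point per mouse and the group mean as a line; axes are linear in log2 and differ between panels. With *Pecam1*, the WT ConA and KO ConA points of *Sele* and *Vcam1* lie over each other (differences 0.07 and 0.11). With the pan-endothelial markers they do not overlap (0.67 and 0.71), though for *Vcam1* the lowest KO ConA and the highest WT ConA point nearly touch.

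The mice of a group differed from each other in a way shared by several members. As deviations of log2(TPM + 1) from the group means over the 14 libraries, *Icam2* and *Pecam1* moved most closely together (Pearson r = 0.899), followed by *Sele* and *Vcam1* (r = 0.828), while *Icam1* had r between -0.16 and 0.23 with the others. These values describe libraries that share their cell composition and are given without a test. Those of *Sele* rest on the ConA livers, as *Sele* was at or near 0 in the saline livers. KO ConA replicate 4 was below its group mean for all 6 genes, by 0.06 for *Icam1* and by 0.90 for *Pecam1*. The pan-endothelial mean was also lowest there in its group, at 1.38 against 1.89 to 2.25. WT ConA replicate 1 was above its group mean for *Pecam1* by 0.85, *Vcam1* by 0.80 and *Icam2* by 0.76, with a pan-endothelial mean of 2.003 against 1.37 to 1.43 in the others. WT ConA replicate 3 was lowest for *Vcam1* (deviation -0.89) and *Sele* (deviation -0.46), with a pan-endothelial mean of 1.37 beside 1.38 and 1.43 in replicates 2 and 4.

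**Figure D4:**
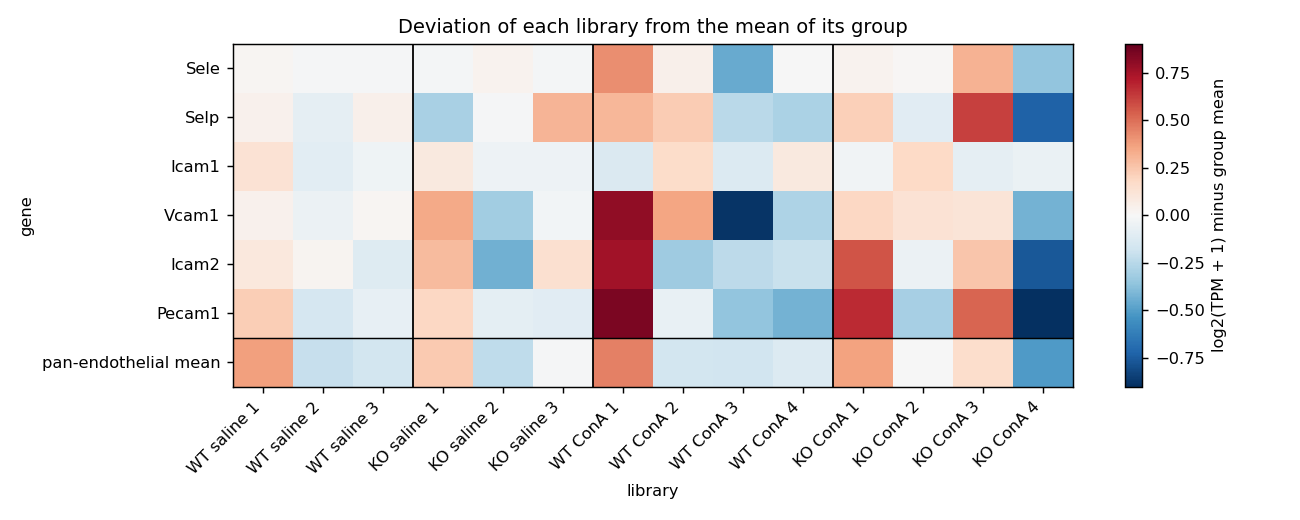
Deviation of each library from its group mean in log2(TPM + 1) for 6 genes and for the mean of 8 pan-endothelial markers, red above and blue below; columns are libraries and black lines part the groups. WT ConA replicate 1 and KO ConA replicate 4 stand out across *Vcam1*, *Icam2* and *Pecam1* (0.85 and -0.90 for *Pecam1*), while the *Icam1* deviations stay between -0.13 and 0.18.

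By the same measure, the genes most like each member over the 14 libraries were *Ifi211* (r = 0.980), *Adamts4* (0.979) and *Hk2* (0.979) for *Sele*, and *Tmem45a* (0.939), *Eif3c* (0.885) and *Sphk1* (0.881) for *Selp*. For *Vcam1* they were *Gja1* (0.953), *Asb4* (0.951) and *Pml* (0.940). *Icam2* was most like *Dnase1l3* (0.961), *Sting1* (0.959) and *Robo4* (0.951), and *Pecam1* most like *Sp110* (0.959), *Dnase1l3* (0.957) and *Cdh5* (0.957). *Dnase1l3* and *Cdh5* are among the sinusoidal and pan-endothelial markers, and *Robo4* is an endothelial receptor. For *Icam1* they were *Lins1* (0.887), *Pdcd5* (0.867) and *Zfp960* (0.852). All were picked as the highest r among the 11327 genes tested in the interaction, which by itself favours high values. For *Sele* the r rest on the ConA livers, as it hardly varied in the saline livers.

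Among the factors that drive inducible adhesion genes, all 8 NF-kB and interferon response factors rose after ConA in both genotypes (7 in WT livers with the averaged WT saline replicates). Their median log2 difference was 2.35 in WT and 2.51 in KO livers, beside -0.07 and 0.07 over all tested genes. *Irf1* went from 22.7 to 27.9 TPM in WT saline to 213 to 352 TPM in WT ConA livers, and from 15.3 to 18.0 TPM to 366 to 425 TPM in KO livers. *Relb* and *Nfkb2*, subunits of NF-kB, rose by 3.38 and 3.16 on the log2 scale in WT livers. The difference between both responses of *Irf1* was 1.06 (adjusted p = 0.0307), and it was lost with the averaged WT saline replicates (adjusted p = 0.0955; range over 22 alternatives 0.0195 to 0.0957). It arose at both ends: KO saline livers were lower than WT saline livers (log2 difference -0.58, adjusted p = 0.0193, and 0.0825 with the averaged replicates), and KO ConA livers differed from WT ConA livers by 0.48 (adjusted p = 0.210).

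Of 13 inducing cytokines and receptors, 8 of 9 tested rose in WT livers (median log2 difference 1.52) and 9 of 10 in KO livers (median 1.76), and 0 fell. *Tnf*, at most 0.05 TPM after saline, reached 3.37 to 5.64 TPM with ConA in WT livers and 2.30 to 5.03 TPM in KO livers. *Il1r1*, the IL-1 receptor, went from 11.4 to 12.7 TPM to 81.9 to 203.6 TPM in WT livers. *Il1b* rose by 1.76 in WT and 2.64 in KO livers. *Ifng* lay between 1.01 and 3.86 TPM in WT ConA livers and between 5.02 and 12.1 TPM in KO ConA livers, with no overlap (log2 difference 1.38, adjusted p = 0.0674).

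On the leukocyte side, 6 of 10 tested integrins and counter-receptors rose in WT livers (median log2 difference 0.72, 4 called with the averaged WT saline replicates) and 7 of 10 in KO livers (median 1.03), and 0 fell. *Selplg*, the gene of the P-selectin ligand PSGL-1, rose by 1.81 and 1.74 on the log2 scale in WT and KO livers. *Itgam*, the alpha chain of the ICAM-1 receptor Mac-1, rose by 1.40 and 1.52. These are genes of blood leukocytes, and in the same livers 9 of 10 neutrophil markers rose in either genotype.

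The other endothelial adhesion and junction genes were divided, with 3 higher and 3 lower of 10 tested in WT livers (median 0.27) and 7 higher and 3 lower of 14 in KO livers (median 0.55). Over all tested genes, 22.0% were called higher and 31.0% lower in WT livers, and 33.9% and 30.7% in KO livers. The WT counts of this list are near those shares. *Esam*, *Cd34* and *Cd47* rose in WT livers by 1.53, 1.07 and 0.74 on the log2 scale, and *Cd99l2*, which like PECAM-1 serves passage through the wall, fell by 1.13. Of the enzymes that build selectin ligands, 4 of 11 could be tested: *B4galt1* rose by 1.71 and 1.90, *St3gal4* by 0.57 and 1.05 and *St3gal3* by 0.40 (adjusted p = 0.0703 with the averaged WT saline replicates) and 0.55 in WT and KO livers, and *St3gal6* fell by 0.94 in WT livers. Of the proteases that shed adhesion molecules and the proteins that link them to actin, 3 of 9 tested rose and 1 fell in WT livers (median 0.42, 6 rising without WT ConA replicate 3), and 7 of 10 rose and 1 fell in KO livers (median 1.01). *Mmp9* rose by 1.49 and 1.98, *Ezr*, an actin linker bound by the ICAM tails, by 1.75 and 1.19, and its relative *Rdx* fell by 1.40 and 0.92. *Msn*, another actin linker of this family, rose by 1.34 and 1.46.

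In KO ConA against WT ConA livers, 0 genes of these 6 lists passed the threshold in limma. An unadjusted p under 0.05 was found for 1 of 9 tested integrins and counter-receptors and 6 of 13 other endothelial adhesion and junction genes. It was found for 2 of 4 selectin ligand enzymes, 3 of 9 cytokines and receptors, 3 of 8 response factors and 2 of 10 proteases and linkers. Over all tested genes the share was 16.7%. The list genes with the smallest p included *Nfkb1*, at 13.4 to 23.8 and 25.8 to 33.5 TPM in WT ConA and KO ConA livers (log2 difference 0.61, adjusted p = 0.137). They also included *Vcl*, the gene of the actin linker vinculin, at 2.28 to 7.85 and 7.88 to 12.2 TPM (0.94, adjusted p = 0.152). *Cd151*, a tetraspanin that associates with integrins, was at 13.4 to 17.5 and 19.9 to 24.0 TPM (0.46, adjusted p = 0.138), and *Ifngr1*, the interferon gamma receptor chain, at 9.90 to 20.0 and 19.7 to 24.5 TPM (0.51, adjusted p = 0.237). Of the 53 tested genes of these lists, 10 had every KO ConA liver above every WT ConA liver and 0 the reverse, while 6.37% of all tested genes had the former. They were *Nfkb1*, *Rela*, *Relb*, *Irf1*, *Ifng*, *Ifngr2*, *St3gal4*, *St3gal6*, *Vcl* and *Cd151*. *Itgb1*, the beta chain of VLA-4, was at 20.3 to 36.3 and 36.2 to 46.3 TPM (0.40, adjusted p = 0.343), and *Mcam* at 0.21 to 1.14 and 1.01 to 2.75 TPM (0.64, adjusted p = 0.193). Beside *Irf1*, the difference between the responses passed the threshold for *Ifngr2* (1.14, adjusted p = 0.0185) and *Cd47* (0.83, adjusted p = 0.0319), both named here for that reason. Most of it lay in the saline livers, where KO was below WT by a log2 difference of -0.81 for *Ifngr2* (adjusted p = 0.0155) and -0.68 for *Cd47* (adjusted p = 0.0114), while after ConA the genotypes differed by 0.33 (adjusted p = 0.305) and 0.15 (adjusted p = 0.675). With the averaged WT saline replicates both calls were lost (adjusted p = 0.0747 and 0.104; ranges over 22 alternatives 0.0067 to 0.0766 and 0.0076 to 0.104).

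**Figure D5:**
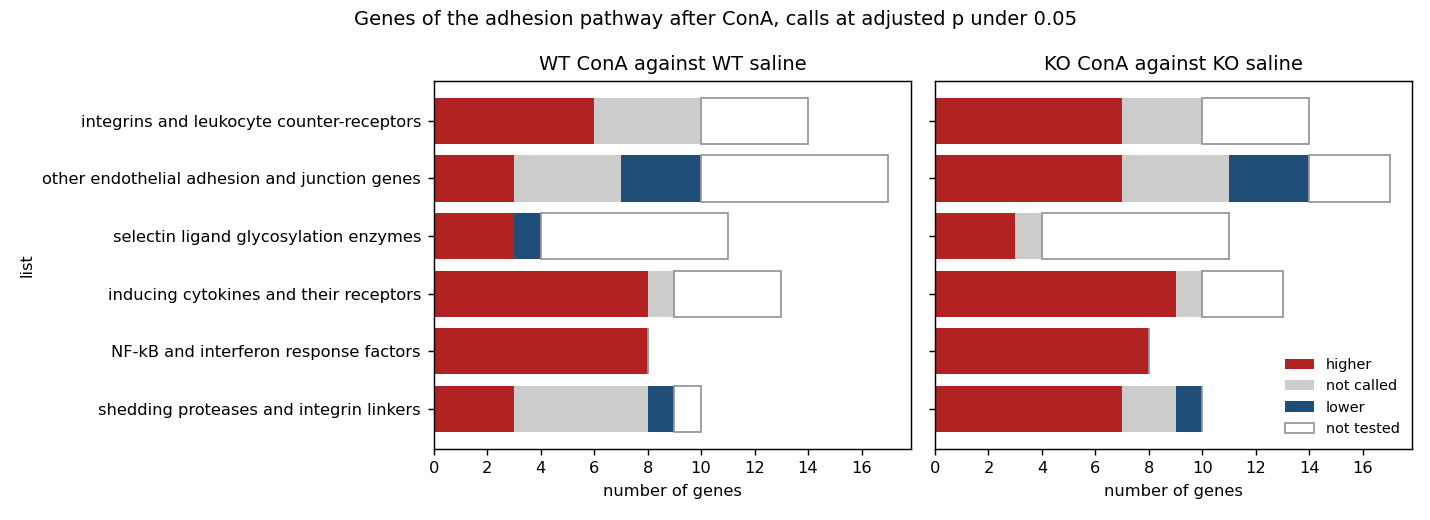
Number of genes per list called higher, not called, called lower or not tested after ConA in WT livers (left) and KO livers (right), on a linear axis. All 8 NF-kB and interferon response factors are higher in both genotypes, and the other endothelial adhesion and junction genes hold 3 lower genes in each.

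Markers of other cell types moved in the same livers. Kupffer cell markers fell for 8 of 9 genes in WT livers, from a summed 131 to 221 TPM to 24.3 to 91.3 TPM, and for 3 of 9 in KO livers. Over all tested genes, 31.0% were called lower in WT and 30.7% in KO livers, so that a count of 3 of 9 is near the share over all genes. Sinusoidal endothelial markers were lower for 3 and higher for 1 of 9 tested genes in WT livers and lower for 6 and higher for 1 of 10 in KO livers, where *Clec4g* fell by 2.52 and *Lyve1* rose by 1.98 on the log2 scale. T cell markers were at a summed 1.19 to 3.68 TPM after saline and 2.87 to 6.72 TPM after ConA, and no gene of any marker list was at 0 in all libraries. *Icam1* is made by hepatocytes, Kupffer cells and endothelium, and *Pecam1* also by platelets and leukocytes. The part of each cell type in the changes of the 7 genes was not tested.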

How the data were processed

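Total RNA of 14 livers was sequenced on a BGISEQ-500 with single reads of 50 bases. The deposited values are TPM made by the authors. The processing notes in the labels name Bowtie2, RSEM 1.3.1 and GRCm38.p6, whereas the methods of the study name STAR and HTSeq, and the gene lengths and read numbers are not given in the sources used here. Symbols and gene identifiers were taken from the files, and promoters and gene positions from RefSeq tables on GRCm38.p6.

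The study used a count model. TPM are not counts, so log2(TPM + 1) was modelled with limma 3.58.1 under R 4.3.3 (lmFit, then eBayes with a trend), a scale that understates changes of low genes. Genes entered a test when the number of libraries at or above 1 TPM reached the size of the smaller group. Calls were made where the Benjamini-Hochberg adjusted p over all genes tested was under 0.05. Fits used the libraries of their groups, and the interaction all 14. Comparisons that share a group of mice are not independent. Ratios were tested with exact two-sided permutation tests in SciPy 1.17.1 (Python 3.11.15, pandas 2.3.3, matplotlib 3.10.9). The fits were first tested on simulated data.

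The 7 genes, 6 lists of partner genes and 11 lists of cell type markers (sinusoidal endothelial, pan-endothelial, platelet, Kupffer cell, neutrophil, monocyte, T cell, B cell, stellate cell, cholangiocyte, hepatocyte) were chosen with earlier results of these data known. Named partners are the up to 3 called genes of a list with the largest change after ConA in each genotype and the 2 with the smallest p between the genotypes after ConA. Some genes that this rule names are not reported here. Markers of endothelium and genes called in the interaction were named after their values were seen. Like genes are the 3 with the highest Pearson r.

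As alternatives, the calls and ratios of the 7 genes and the calls of the lists and named partners were recomputed with a pseudocount of 0.1, a filter at TPM 5 or none, median-ratio rescaling, robust eBayes, a replicate block, all 14 libraries in the fit, averaged WT saline replicates 2 and 3, each library left out, and, for the ratios, a pan-endothelial reference. Leaving out replicate 3 of both ConA groups, and all alternatives for lists and partners, were added after the data were seen.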

Additional observations from a re-analysis of the deposited data

Results flagged for a closer look

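Of 12 groups of 4 libraries examined (6 genes in WT ConA and KO ConA), 3 held a library far from the other 3, judged by its gap over the range of the group; chance does this in about 1 of 20 groups. *Icam1* in KO ConA replicate 2 was 236.79 TPM, while the others were at 197.61 to 204.03 TPM and the WT ConA livers reached 237.32 TPM. *Vcam1* in KO ConA replicate 4 was 16.51 TPM against 24.42 to 25.71 TPM, in the library with the lowest *Pecam1* (4.16 TPM) and pan-endothelial mean (1.38) of that group. *Icam2* in WT ConA replicate 1 was 3.04 TPM against 0.92 to 1.08 TPM, in the library with the highest *Pecam1* (8.03 TPM) and pan-endothelial mean (2.003) of that group. What share these libraries' endothelial content has in the gaps was not tested.

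The change of *Sele* after ConA was larger in KO than in WT livers by 1.01 on the log2 scale (limma interaction, adjusted p = 0.0412). *Sele* was near 0 in every saline liver and entered the test through the KO ConA livers, where it is high, so this value repeats the difference between the genotypes after ConA, which did not pass (adjusted p = 0.0651). The interaction passed the threshold under 7 of 21 alternatives, with adjusted p between 0.0228 and 0.113.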

How the results depend on the processing

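In WT ConA against WT saline, 5 members were called, of which *Icam2* passed the filter only through the ConA livers and *Selp* mainly through the saline livers. The count was 2 with a filter at TPM 5, where *Icam1* and *Vcam1* alone could be tested, and 3 with all 14 libraries in the fit or with WT saline replicates 2 and 3 averaged, when *Icam2* and *Pecam1* were lost. Leaving out 1 library gave 3 to 4. Without any 1 of the WT saline libraries *Icam2* (adjusted p 0.0783 to 0.129) and *Pecam1* (0.0533 to 0.114) were lost, and without WT ConA replicate 2 *Pecam1* (0.0640). *Icam1*, *Vcam1* and *Selp* passed under every alternative in which they were tested. In KO ConA against KO saline, 4 were called and 4 to 6 under the alternatives, with *Sele* passing the filter only through the ConA livers. In KO ConA against WT ConA, 0 were called, and 3 with all 14 libraries, of which *Sele* passed the filter mainly through the KO ConA livers. In KO saline against WT saline, 1 was called, and 0 with a filter at TPM 5, with no filter, with all 14 libraries or with the averaged replicates, 2 after median-ratio rescaling, and 0 to 3 without 1 library. The *Pecam1* call there was lost without WT saline replicate 2 or 3 or KO saline replicate 1 or 2 (adjusted p 0.0632 to 0.133). For the interaction, 1 was called, and 0 with a pseudocount of 0.1, a filter at TPM 5, no filter, rescaling, the replicate block or the averaged replicates, and 0 to 1 without 1 library. The *Sele* call was lost without any 1 of the 6 saline libraries or without KO ConA replicate 1, 2 or 4 (adjusted p 0.0512 to 0.113).

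Over all genes, KO ConA against WT ConA had 45 calls, but 4 with no filter, 25 after rescaling, 140 with the replicate block, 640 with all 14 libraries and 5 without KO ConA replicate 4. Rescaling moved the share of calls that were higher from 80% to 48% there and from 32.8% to 49.1% in KO saline against WT saline, and the median of all genes in the interaction from 0.14 to 0.03. Of the lists, the other endothelial adhesion genes called higher in WT livers went from 3 to 5 without WT ConA replicate 3, sinusoidal markers called lower there from 3 to 5 without WT ConA replicate 1, cholangiocyte markers called higher there from 3 to 1 without WT saline replicate 3, and Kupffer cell markers called lower in KO livers from 3 to 5 without KO saline replicate 2 or KO ConA replicate 3. The interaction had 541 calls, 28 with the averaged replicates and 1591 without replicate 3 of both ConA groups.

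The labels do not say that a replicate number marks a shared litter, batch or day. Same-numbered libraries had r from -0.19 to 0.41 in their deviations from the group means. Of the WT ConA and KO ConA pairs 3 of 4 were above 0.1, of the saline pairs 2 of 3, and in no pair of groups were all, so the numbers were not taken to pair the mice. Of the 8 ConA libraries, 2 were most like their own number in the other genotype. With the replicate block, KO ConA against KO saline had 6 members called, *Selp* (adjusted p = 0.0290) and *Icam2* (adjusted p = 0.0082) being added; that fit could not use KO ConA replicate 4, which has no saline partner, and gave the same log2 differences as leaving it out.

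With the pan-endothelial reference, the ratios changed by -0.69 for *Selp*, 4.92 for *Icam1*, 1.97 for *Vcam1* and 0.73 for *Icam2* in WT ConA against WT saline, by 2.38 for *Sele*, 0.93 for *Selp*, 5.15 for *Icam1*, 3.40 for *Vcam1* and 1.02 for *Icam2* in KO ConA against KO saline, and by 0.67 for *Sele*, 0.52 for *Selp*, 0.71 for *Vcam1* and 0.16 for *Icam2* in KO ConA against WT ConA. *Selp* and *Icam2* in KO ConA against KO saline, *Icam2* in WT ConA against WT saline, and *Selp* and *Icam2* in KO ConA against WT ConA thus changed sign, none of them past the threshold. A pseudocount of 0.1 gave -2.23 for *Selp* and 0.21 for *Icam2* in WT livers, 3.16 for *Sele* in KO livers and 0.64 for *Sele* between the genotypes after ConA. The cause was not tested, beyond the different course of the reference genes.

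The read number behind a TPM is unknown. The counting error is not known for *Sele*, *Madcam1*, *Icam2* and *Selp*, which lie near or under 1 TPM in part of the groups. For *Selp* this is the WT ConA group, which carries its WT fall. Nothing in the labels says whether the mice of a group shared a cage or a day, and the p-values measure the spread between these mice. Transcript levels do not report protein on the cell surface, which for P-selectin is set by release from granules.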

Other observations

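Further marker lists described the livers in which the adhesion molecules were measured. The summed TPM of the cholangiocyte markers lay between 46.5 and 57.0 in WT saline livers, between 83.7 and 89.4 in KO saline livers, and, after ConA, between 18.7 and 32.1 in WT and between 36.8 and 56.4 in KO livers. By limma 3 of 5 were called higher and 1 lower after ConA in WT livers, so that the sum and the number of calls moved in opposite directions. In KO livers 1 was called higher and 1 lower. Stellate cell markers had sums of 20.4 to 81.0 TPM in WT saline livers and of 77.8 to 129 TPM in KO saline livers, with 2 of 6 tested genes called higher in KO saline than in WT saline livers (0 with WT saline replicates 2 and 3 averaged). After ConA, 4 of 6 were called lower in KO livers, beside 30.7% of all tested genes.

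Of 4 tested monocyte markers, *Ly6c2*, *Chil3* and *Plac8* rose in each genotype. The other, *F10* (coagulation factor X), fell in KO livers, from 304 to 334 TPM after saline to 234 to 283 TPM after ConA. This level is far above that of the other 3, so the fall of *F10* is not read as a fall of monocytes. B cell markers summed to 0.44 to 4.24 TPM over all libraries. Of 8 hepatocyte markers, 6 fell and 1 rose in each genotype. In KO ConA against WT ConA livers, 0 genes of these lists passed the threshold in limma, and 7 of 10 neutrophil markers had an unadjusted p under 0.05, beside 16.7% of all tested genes, with a median log2 difference of 0.75 beside 0.05 over all tested genes.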
